A study of Homo sapiens with 12 samples.

Results

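Autophagy and lysosome genes were followed in OVCAR-3 cells after RNA interference. The set held 41 human genes chosen by name: 23 of autophagosome formation, the transcription factor TFEB, and 17 that encode lysosomal enzymes, membrane proteins and proton pump subunits. A probe was kept where its signal exceeded the array's negative controls (detection p under 0.01) on at least 3 of the 12 arrays. By that rule 39 of the 41 genes had a kept probe, 22 of autophagosome formation and all 17 of the lysosome, out of 10873 genes with a kept probe in the series. They were read by 55 of 65 probes, out of 14441 kept probes. No probe is paired with GABARAP, and the probe of TFEB, the factor that activates many lysosomal genes, was detected on 0 arrays. The leading probes of 35 genes were detected on all 12 arrays, those of NBR1 on 9, of WIPI1 and HEXA on 8 and of ATG13 on 3.

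OVCAR-3 is an established human line from a high-grade serous carcinoma of the ovary. Total RNA was taken 72 hours after transfection with Lipofectamine RNAiMAX, and all 4 groups of 3 arrays received an siRNA. The siOct4 cells received siRNA against Oct4 (POU5F1), a transcription factor of pluripotent cells. The siCcnf+siNipp1 cells received 2 siRNAs at once, against Ccnf (cyclin F) and Nipp1 (PPP1R8), whose effects cannot be told apart here, the siRb1 cells siRNA against the retinoblastoma gene Rb1, and the control cells control siRNA. Each array read the RNA of a whole culture, so a change in every cell and a change in a share of the cells cannot be told apart.

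Autophagy closes a membrane around part of the cytoplasm, forming the autophagosome, and delivers the content to the lysosome. The ULK1 kinase complex and a class III phosphatidylinositol 3-kinase start the membrane, WIPI proteins bind the lipid made there, and 2 ubiquitin-like systems attach proteins of the ATG8 family to it. Lysosomal hydrolases, kept active by a proton pump, then digest the cargo.

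The targeted transcripts were measured where a probe allowed it. POU5F1 was at least 15.9-fold lower with siOct4, undetected on all 3 arrays. CCNF changed by -1.55 on the log2 scale with siCcnf+siNipp1, and RB1 was at least 2.22-fold lower with siRb1. Outside their own knockdowns, CCNF changed by -0.96 (adjusted p = 0.0133) and RB1 by -0.61 (0.0435) with siOct4, and POU5F1 by 1.03 (0.00298) with siCcnf+siNipp1. No probe is paired with PPP1R8. Each array had 16186 to 17351 detected probes (34.2 to 36.7%), and 5 of 9 listed markers of serous carcinoma epithelium were detected on all 12 arrays, with WT1 on 0. Of the markers of other cell types, 5 of 6 for fibroblasts and 3 of 4 with a probe for leukocytes were on 0 arrays, while the endothelial markers CDH5 and VWF were on 12 and PECAM1 and KDR on 0.

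Values below are log2 intensities after background correction and quantile normalisation, and differences between groups are log2 fold changes from limma with Benjamini-Hochberg adjustment over all kept probes. An adjusted p under 0.05 counted as a change. Levels of different probes cannot be compared with each other. With 3 arrays against 3, an exact permutation test cannot give a p below 0.1, so single genes rest on the model fitted over all probes.

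With siCcnf+siNipp1, 21 of the 39 genes rose and 1 fell, where 18.4% of all genes rose and 18.7% fell. Among autophagosome genes 11 of 22 rose and ATG4B fell, and the median log2 fold change was 0.43. Among lysosomal genes 10 of 17 rose and 0 fell, with a median of 0.49. With siOct4, 9 genes rose and 3 fell, against 16.9% and 16.1% of all genes: 6 rose and 1 fell among the autophagosome genes and 3 rose and 2 fell among the lysosomal genes, with a median of 0.17 in each class. With siRb1, ASAH1 rose and GABARAPL1 fell, 1 gene each way, against 2.67% and 1.51% of all genes; with the replicate number as a block in the fit 4 genes were called, while the share of all kept probes called was 9.11% in place of 3.99%. The 4 groups differed for 26 genes by the F test of the same fit, 13 of 22 autophagosome and 13 of 17 lysosomal genes, beside 56.7% of all genes. The median over all genes lay within 0.01 of 0 in each of these comparisons. The mean was highest with siCcnf+siNipp1 for 15 of the 22 autophagosome genes and 12 of the 17 lysosomal genes. The share of all genes with their highest mean in that group was not computed, so these counts describe the listed genes only. The counts and medians of autophagosome genes include WIPI1, undetected in control, whose probe passed the filter through the knockdown arrays. The 3 comparisons share their control arrays.

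**Figure D1:**
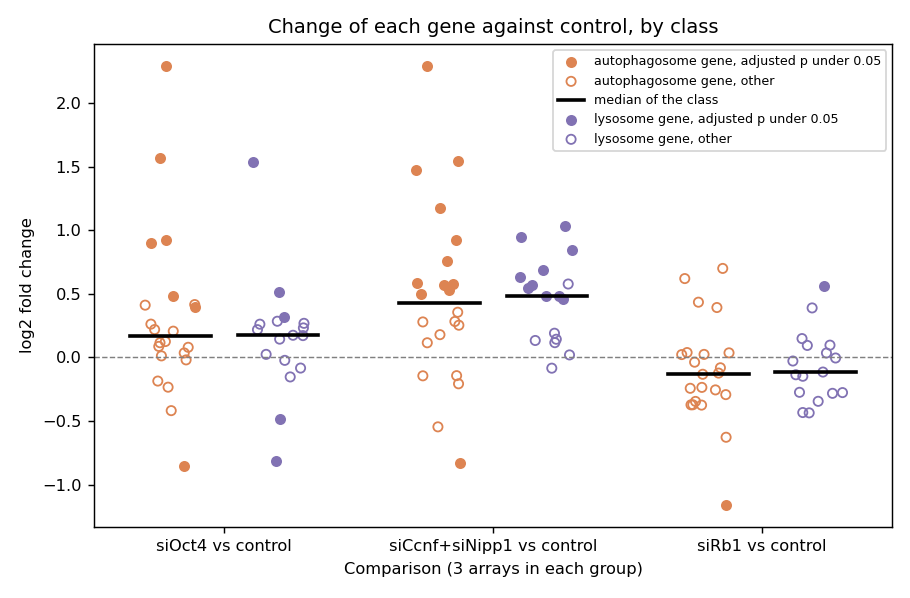
Log2 fold change of the 22 autophagosome and 17 lysosomal genes with a kept probe in each comparison with control (3 arrays a group). Each point is the leading probe of 1 gene, filled where the adjusted p was under 0.05, and the bar is the class median, which was 0.43 and 0.49 with siCcnf+siNipp1, 0.17 in both classes with siOct4, and below 0 in both classes with siRb1.

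**Figure D2:**
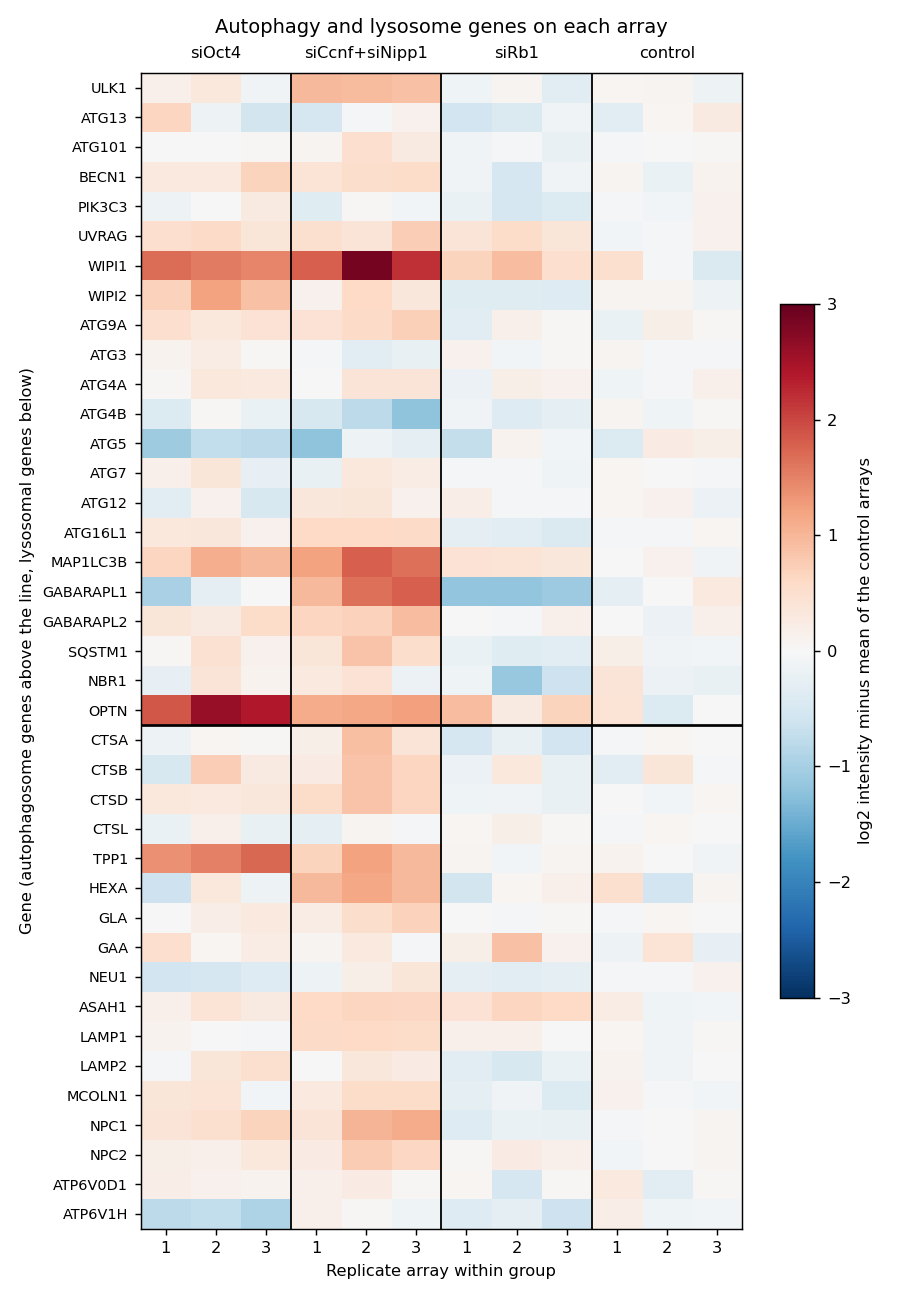
Log2 intensity of each gene on each of the 12 arrays minus the mean of the control arrays, with groups in columns and genes in rows, autophagosome genes above the line and lysosomal genes below it. Red is above the control mean and blue below it; WIPI1 and OPTN are red on all siOct4 and siCcnf+siNipp1 arrays, and GABARAPL1 is red with siCcnf+siNipp1 and blue with siRb1.

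ULK1, the kinase that starts autophagosome formation, read 11.63, 11.78 and 11.36 with siOct4, 12.44, 12.41 and 12.34 with siCcnf+siNipp1, 11.34, 11.55 and 11.14 with siRb1, against 11.54, 11.57 and 11.31 in control. The 3 siCcnf+siNipp1 arrays lay above all 9 others. ULK1 rose by 0.92 (SE 0.14, adjusted p = 0.000558) with siCcnf+siNipp1, and its other kept probe gave 0.87 (SE 0.16, adjusted p = 0.00136). With siOct4 the difference from control was 0.12 (adjusted p = 0.577), so this kinase differed between both knockdowns by -0.81 (SE 0.14, adjusted p = 0.00126). Of the other subunits of the kinase complex, ATG101 stood at 0.28 (adjusted p = 0.0844) with siCcnf+siNipp1. ATG13 was detected on 3 of the 12 arrays, too few to read its change, though its values stay in the counts and medians.

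In the class III phosphatidylinositol 3-kinase complex, UVRAG, a subunit of the form that acts in endosome and autophagosome maturation, read 8.73, 8.80 and 8.60 with siOct4, 8.71, 8.61 and 8.97 with siCcnf+siNipp1, 8.61, 8.78 and 8.60 with siRb1, against 8.16, 8.18 and 8.35 in control. All 9 knockdown arrays lay above the 3 control arrays. UVRAG rose by 0.48 (SE 0.12, adjusted p = 0.0115) with siOct4 and by 0.53 (SE 0.12, adjusted p = 0.0059) with siCcnf+siNipp1, and stood at 0.43 (adjusted p = 0.0776) with siRb1. BECN1, the scaffold of the complex, read 11.06, 11.06 and 11.44 with siOct4, 11.19, 11.31 and 11.32 with siCcnf+siNipp1, 10.67, 10.26 and 10.66 with siRb1, against 10.87, 10.58 and 10.88 in control. BECN1 rose by 0.50 (SE 0.15, adjusted p = 0.0242) with siCcnf+siNipp1, a call that ended when replicate 2 of control (adjusted p = 0.0938), or replicate 2 (0.0694) or 3 (0.0695) of siCcnf+siNipp1, was left out, and under median scaling (0.0988). With siOct4 it stood at 0.41 (adjusted p = 0.0591), and was called with the replicate number as a block in the fit (adjusted p = 0.0224). The lipid kinase itself, PIK3C3, stood at 0.04 (adjusted p = 0.878) with siOct4, -0.14 (adjusted p = 0.48) with siCcnf+siNipp1 and -0.37 (adjusted p = 0.202) with siRb1.

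WIPI1, which binds the lipid made by that complex, read 7.73, 7.61 and 7.53 with siOct4, 7.85, 8.94 and 8.25 with siCcnf+siNipp1, 6.72, 6.98 and 6.57 with siRb1, against 6.54, 6.02 and 5.61 in control. It was undetected on all 3 control arrays and detected on all 6 siOct4 and siCcnf+siNipp1 arrays, which all lay above control. WIPI1 was at least 3.54-fold higher with siCcnf+siNipp1 (adjusted p = 0.000105) and at least 2.15-fold higher with siOct4 (adjusted p = 0.00111). The probe passed the filter through the knockdown arrays, so its difference from control is in part given by that choice. Both bounds hold for the background-corrected values only. Without background correction the fitted log2 changes were 1.15 with siCcnf+siNipp1 and 0.69 with siOct4, which lie below those bounds.

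WIPI2, the relative that recruits ATG16L1, read 9.98, 10.50 and 10.17 with siOct4, 9.43, 9.89 and 9.62 with siCcnf+siNipp1, 8.93, 8.93 and 8.90 with siRb1, against 9.38, 9.37 and 9.13 in control. WIPI2 rose by 0.93 (SE 0.16, adjusted p = 0.00102) with siOct4 and stood higher there than with siCcnf+siNipp1 by 0.57 (SE 0.16, adjusted p = 0.015). Against control it stood at 0.36 (adjusted p = 0.0965) with siCcnf+siNipp1, and 0.0456 with the block. ATG9A, the membrane protein of the vesicles that seed the autophagosome, read 10.00, 9.80 and 9.91 with siOct4, 9.93, 10.06 and 10.20 with siCcnf+siNipp1, 9.18, 9.65 and 9.53 with siRb1, against 9.28, 9.66 and 9.53 in control. ATG9A rose by 0.57 (SE 0.15, adjusted p = 0.0108) with siCcnf+siNipp1, and its second probe gave 0.78 (SE 0.14, adjusted p = 0.00153). With siOct4 its probes stood at 0.42 (adjusted p = 0.0506) and 0.40 (adjusted p = 0.0496), on either side of the threshold, and the first was at 0.0267 with the block.

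Of the 7 conjugation genes 1 rose and 1 fell with siCcnf+siNipp1 (14.3% each), near the 18.4% and 18.7% of all genes. With siOct4 0 rose and 1 fell (14.3%), beside 16.9% and 16.1% of all genes. ATG16L1, which places the ligase on the membrane, read 11.38, 11.39 and 11.18 with siOct4, 11.65, 11.65 and 11.62 with siCcnf+siNipp1, 10.78, 10.72 and 10.62 with siRb1, against 11.03, 11.03 and 11.10 in control. It rose by 0.59 (SE 0.10, adjusted p = 0.00128) with siCcnf+siNipp1, and its second probe gave 0.53. With the block it was called higher with siOct4 as well (0.26, adjusted p = 0.0391) and lower with siRb1 (-0.35, 0.0426), against 0.075 and 0.093 without it.

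ATG4B, a protease that trims ATG8 proteins and can also release them from membranes, read 11.28, 11.71 and 11.49 with siOct4, 11.19, 10.89 and 10.47 with siCcnf+siNipp1, 11.56, 11.29 and 11.42 with siRb1, against 11.76, 11.56 and 11.72 in control. The siCcnf+siNipp1 arrays lay below all control arrays, and ATG4B fell by 0.83 on the log2 scale (SE 0.18, adjusted p = 0.00381). It was the only one of the 39 genes called lower in that comparison. ATG5, which ATG12 is joined to, read 6.94, 7.27 and 7.22 with siOct4, 6.80, 7.84 and 7.72 with siCcnf+siNipp1, 7.27, 8.10 and 7.92 with siRb1, against 7.58, 8.24 and 8.17 in control. ATG5 fell by 0.86 with siOct4 (SE 0.29, adjusted p = 0.0404). That call was lost in 7 of 21 alternatives, among them without control replicate 2 (0.124) or 3 (0.119) and without each siOct4 array (0.0705 to 0.107). With siCcnf+siNipp1 ATG5 stood at -0.55 (adjusted p = 0.163) and an adjusted p of 0.0086 with the block. Replicate 1 was the lowest array in all 4 groups.

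ATG3, the enzyme that hands ATG8 proteins to the lipid, and ATG7, which activates them, lay between -0.21 and 0.12 in the comparisons of siOct4 and siCcnf+siNipp1 with control. ATG12 and ATG4A each had 2 probes that fell on either side of the threshold. For ATG12 they gave 0.28 (adjusted p = 0.205) and 0.55 (adjusted p = 0.0368) with siCcnf+siNipp1. For ATG4A they gave 0.25 (adjusted p = 0.221) and 0.38 (adjusted p = 0.035), and the first was at 0.0432 with the block. The second ATG4A probe was also called with siOct4, at 0.36 (adjusted p = 0.0471).

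ATG8 proteins are the small ubiquitin-like proteins that coat the autophagosome and bind cargo receptors. By their leading probes all 3 that could be read rose with siCcnf+siNipp1, beside 18.4% of all genes. MAP1LC3B read 10.50, 10.93 and 10.82 with siOct4, 11.05, 11.63 and 11.50 with siCcnf+siNipp1, 10.29, 10.25 and 10.18 with siRb1, against 9.85, 9.97 and 9.73 in control. The groups lay apart in the order siCcnf+siNipp1, siOct4, siRb1 and control, with no overlap between neighbours. MAP1LC3B rose by 1.55 (SE 0.16, adjusted p = 5.44e-05) with siCcnf+siNipp1 and by 0.90 (SE 0.16, adjusted p = 0.00146) with siOct4, and stood at 0.39 (adjusted p = 0.223) with siRb1. The probe may also read MAP1LC3B2, a near-identical copy.

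GABARAPL1 read 9.83, 10.52 and 10.77 with siOct4, 11.77, 12.45 and 12.59 with siCcnf+siNipp1, 9.60, 9.61 and 9.69 with siRb1, against 10.51, 10.78 and 11.09 in control. It rose by 1.48 (SE 0.26, adjusted p = 0.00114) with siCcnf+siNipp1, a fold change of 2.78. With siRb1 it fell by 1.16 on the log2 scale (SE 0.26, adjusted p = 0.0275), and its 3 siRb1 arrays lay below the other 9. That call was lost without control replicate 2 (0.0727) or 3 (0.128) and without each siRb1 array (0.0785 to 0.0834). With siOct4 it stood at -0.42 (adjusted p = 0.241). The siOct4 group stood below siCcnf+siNipp1 by -1.89 (SE 0.26, adjusted p = 0.000233).

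GABARAPL2 had 2 kept probes that disagreed. The leading probe read 12.40, 12.32 and 12.59 with siOct4, 12.69, 12.73 and 12.96 with siCcnf+siNipp1, 12.06, 11.98 and 12.19 with siRb1, against 12.05, 11.87 and 12.19 in control. It rose by 0.75 (SE 0.13, adjusted p = 0.00108) with siCcnf+siNipp1 and by 0.40 (SE 0.13, adjusted p = 0.0359) with siOct4. The other probe, ILMN_2046315, read 8.14, 7.93 and 7.79 with siOct4, 7.10, 8.27 and 8.21 with siCcnf+siNipp1, 8.39, 8.22 and 7.48 with siRb1, against 8.10, 7.98 and 8.64 in control, and its groups overlapped. It stood at -0.38 (adjusted p = 0.379) and -0.29 (adjusted p = 0.528) in the same comparisons. The siOct4 call of the leading probe was lost in 8 of 21 alternatives, among them median scaling (0.231), only these 2 groups in the fit (0.0793) and without control replicate 1 (0.0756) or 2 (0.132) or siOct4 replicate 1 (0.0558) or 3 (0.122). On the mean of both probes GABARAPL2 was not called, with 0.19 (adjusted p = 0.463) for siCcnf+siNipp1 and 0.05 (0.848) for siOct4.

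Cargo receptors tie ubiquitinated material to ATG8 proteins. OPTN, a receptor for damaged mitochondria and bacteria, read 9.73, 10.49 and 10.28 with siOct4, 8.99, 9.05 and 9.10 with siCcnf+siNipp1, 8.79, 8.14 and 8.55 with siRb1, against 8.28, 7.45 and 7.89 in control. The siOct4 arrays lay above all others and the siCcnf+siNipp1 arrays came next. OPTN rose by 2.29 (SE 0.24, adjusted p = 5.73e-05) with siOct4, a fold change of 4.9, and by 1.17 (SE 0.24, adjusted p = 0.0029) with siCcnf+siNipp1. The 2 knockdowns differed by 1.12 (SE 0.24, adjusted p = 0.00394). With siRb1 OPTN stood at 0.62 (adjusted p = 0.192), with overlapping arrays.

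SQSTM1, which encodes p62, read 14.72, 15.13 and 14.81 with siOct4, 15.05, 15.52 and 15.20 with siCcnf+siNipp1, 14.49, 14.31 and 14.36 with siRb1, against 14.86, 14.58 and 14.60 in control. It rose by 0.58 (SE 0.15, adjusted p = 0.012) with siCcnf+siNipp1, a call lost without siCcnf+siNipp1 replicate 2 (adjusted p = 0.0553) and under median scaling (0.0512). With siOct4 it stood at 0.21 (adjusted p = 0.337). NBR1, a receptor related to p62, was detected on 9 arrays and read 6.63, 7.27 and 6.98 with siOct4, 7.17, 7.31 and 6.71 with siCcnf+siNipp1, 6.75, 5.75 and 6.27 with siRb1, against 7.27, 6.71 and 6.66 in control, with overlapping groups. It stood at -0.63 (adjusted p = 0.241) with siRb1.

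**Figure D3:**
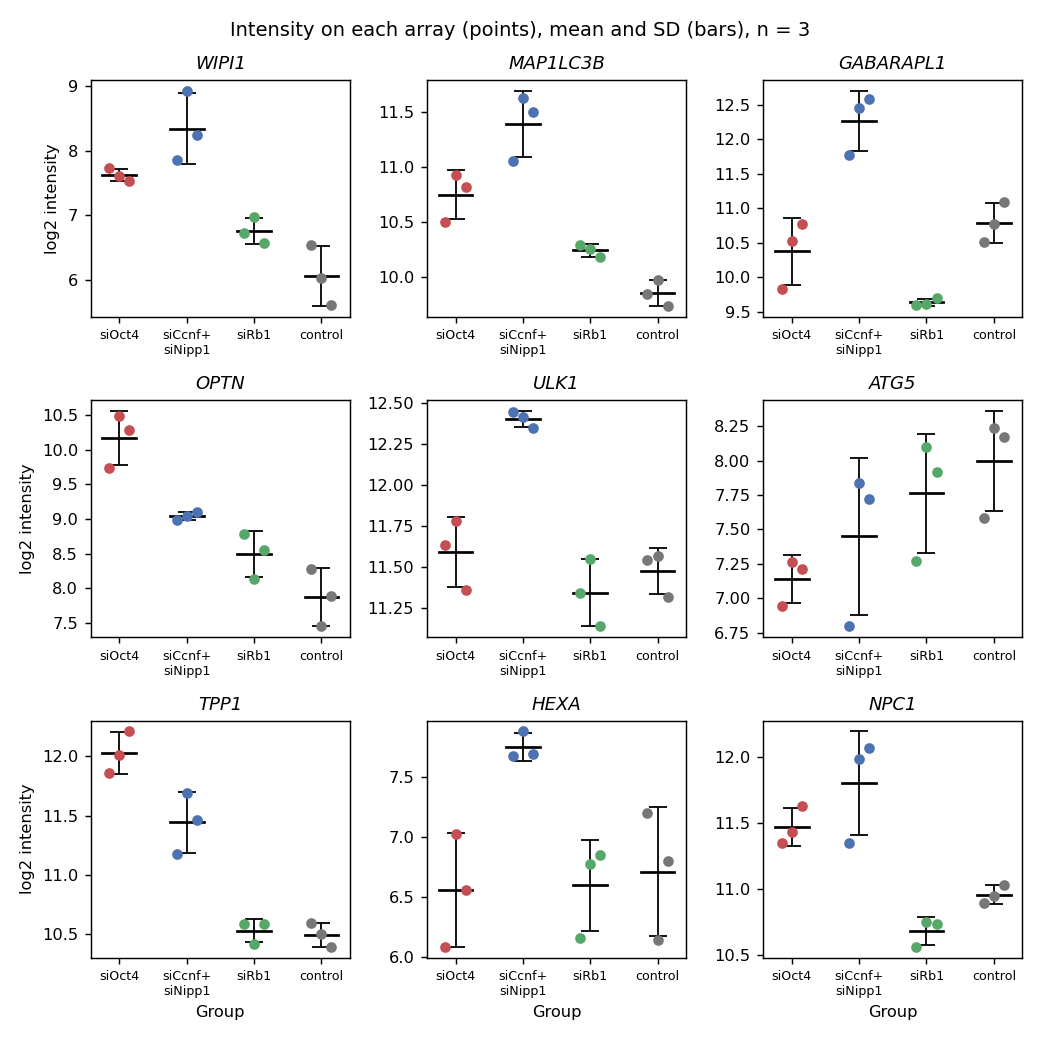
Log2 intensity of 9 genes on each array (points), with the group mean and SD (bars, n = 3), in the siOct4, siCcnf+siNipp1, siRb1 and control groups; the axes do not start at 0. OPTN and TPP1 have their highest mean with siOct4, MAP1LC3B, WIPI1 and NPC1 with siCcnf+siNipp1, and the siCcnf+siNipp1 points of ULK1, GABARAPL1 and HEXA lie above the other 9.

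Among the lysosomal proteases, TPP1, a tripeptidyl peptidase, had the lowest F test p among the leading probes of the 39 genes (adjusted p = 2.62e-05). It read 11.86, 12.01 and 12.21 with siOct4, 11.17, 11.69 and 11.46 with siCcnf+siNipp1, 10.59, 10.42 and 10.59 with siRb1, against 10.59, 10.50 and 10.39 in control. All siOct4 arrays lay above all siCcnf+siNipp1 arrays, and both above siRb1 and control. TPP1 rose by 1.53 (SE 0.15, adjusted p = 3.29e-05) with siOct4 and by 0.95 (SE 0.15, adjusted p = 0.000545) with siCcnf+siNipp1, and stood at 0.03 (adjusted p = 0.942) with siRb1.

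CTSD, cathepsin D, an aspartic protease, read 11.05, 11.02 and 11.07 with siOct4, 11.28, 11.59 and 11.39 with siCcnf+siNipp1, 10.60, 10.64 and 10.52 with siRb1, against 10.75, 10.66 and 10.80 in control. CTSD rose by 0.68 (SE 0.11, adjusted p = 0.000689) with siCcnf+siNipp1. With siOct4 it was called at 0.31 (SE 0.11, adjusted p = 0.0455), and that call was lost in 13 of 21 alternatives, with an adjusted p of up to 0.237. CTSA, which protects neuraminidase and beta-galactosidase in the lysosome, read 11.91, 12.11 and 12.08 with siOct4, 12.24, 12.96 and 12.44 with siCcnf+siNipp1, 11.56, 11.83 and 11.49 with siRb1, against 12.02, 12.12 and 12.04 in control. It rose by 0.49 (SE 0.17, adjusted p = 0.0417) with siCcnf+siNipp1, a call lost in 11 of 21 alternatives. Without siCcnf+siNipp1 replicate 2, its highest array, the difference was 0.28 (adjusted p = 0.166).

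The cysteine proteases were not called against control. CTSB, cathepsin B, stood at 0.58 (adjusted p = 0.145) with siCcnf+siNipp1, and 0.0128 with the block. Its second probe stood at 0.51 (adjusted p = 0.172). Against siRb1 that second CTSB probe was called higher with siOct4 (0.86) and with siCcnf+siNipp1 (0.86), while the leading probe was not called. CTSL, cathepsin L, had 3 kept probes, and they lay between -0.08 and -0.03 with siCcnf+siNipp1 and between -0.08 and -0.02 with siOct4. The leading CTSL probe read 13.30, 13.66 and 13.29 with siOct4, 13.22, 13.59 and 13.44 with siCcnf+siNipp1, 13.56, 13.69 and 13.55 with siRb1, against 13.46, 13.55 and 13.50 in control, with overlapping groups.

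Of the 5 genes for glycosidases and ceramidase, 3 rose with siCcnf+siNipp1 (60%), beside 18.4% of all genes. HEXA, the alpha subunit of beta-hexosaminidase, read 6.09, 7.03 and 6.56 with siOct4, 7.68, 7.88 and 7.68 with siCcnf+siNipp1, 6.17, 6.77 and 6.85 with siRb1, against 7.20, 6.14 and 6.80 in control. It was detected on all siCcnf+siNipp1 arrays, 1 siOct4 array, 2 siRb1 arrays and 2 control arrays, and was at least 1.89-fold higher with siCcnf+siNipp1 than in control (adjusted p = 0.015). Leaving out replicate 2 of the control group (0.0619) or of siCcnf+siNipp1 (0.0515) ended the call. The fitted log2 change lay between 0.50 and 1.28 over the alternatives, so the bound holds for the main processing only. GLA, alpha-galactosidase A, read 12.30, 12.48 and 12.57 with siOct4, 12.50, 12.81 and 12.97 with siCcnf+siNipp1, 12.27, 12.25 and 12.31 with siRb1, against 12.22, 12.33 and 12.28 in control. It rose by 0.48 (SE 0.13, adjusted p = 0.0138) with siCcnf+siNipp1, a call lost without siCcnf+siNipp1 replicate 3 (0.0613) and under median scaling (0.115).

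ASAH1, acid ceramidase, read 8.36, 8.63 and 8.49 with siOct4, 8.82, 8.86 and 8.84 with siCcnf+siNipp1, 8.65, 8.86 and 8.81 with siRb1, against 8.42, 8.07 and 8.13 in control. It rose by 0.63 (SE 0.12, adjusted p = 0.00246) with siCcnf+siNipp1 and by 0.56 (SE 0.12, adjusted p = 0.0268) with siRb1, and all arrays of both groups lay above control. The siRb1 call was lost without control replicate 2 (adjusted p = 0.0955) or 3 (0.125) and without siRb1 replicate 2 (0.0954) or 3 (0.1). NEU1, a lysosomal sialidase, read 11.01, 11.09 and 11.20 with siOct4, 11.44, 11.77 and 11.95 with siCcnf+siNipp1, 11.30, 11.28 and 11.33 with siRb1, against 11.52, 11.52 and 11.72 in control. NEU1 fell by 0.49 on the log2 scale with siOct4 (SE 0.14, adjusted p = 0.017, and 0.0711 without control replicate 3) and stood at 0.13 (adjusted p = 0.475) with siCcnf+siNipp1. GAA, acid alpha-glucosidase, stood at 0.27 (adjusted p = 0.399), 0.12 (adjusted p = 0.723) and 0.39 (adjusted p = 0.404) with siOct4, siCcnf+siNipp1 and siRb1.

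Among the genes of the lysosomal membrane and cholesterol export, 4 of 5 rose with siCcnf+siNipp1 (80%), beside 18.4% of all genes. NPC1, which moves cholesterol out of the lysosome, read 11.35, 11.43 and 11.63 with siOct4, 11.35, 11.99 and 12.06 with siCcnf+siNipp1, 10.56, 10.75 and 10.73 with siRb1, against 10.89, 10.95 and 11.03 in control. NPC1 rose by 0.84 (SE 0.17, adjusted p = 0.00292) with siCcnf+siNipp1. With siOct4 it was called at 0.51 (SE 0.17, adjusted p = 0.0391), and that call was lost in 8 of 21 alternatives, with an adjusted p of up to 0.124. NPC2, the soluble partner of NPC1, read 14.29, 14.27 and 14.43 with siOct4, 14.37, 14.87 and 14.73 with siCcnf+siNipp1, 14.15, 14.36 and 14.27 with siRb1, against 14.02, 14.11 and 14.19 in control. It rose by 0.55 (SE 0.14, adjusted p = 0.00896) with siCcnf+siNipp1, and was not called under median scaling (0.0675).

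LAMP1, the main glycoprotein of the lysosomal membrane, read 13.75, 13.68 and 13.62 with siOct4, 14.23, 14.26 and 14.21 with siCcnf+siNipp1, 13.81, 13.81 and 13.64 with siRb1, against 13.73, 13.56 and 13.69 in control. The siCcnf+siNipp1 arrays lay within 0.05 of each other and above the other 9, and LAMP1 rose by 0.57 (SE 0.10, adjusted p = 0.00145). It stood at 0.02 (adjusted p = 0.882) with siOct4. MCOLN1, a calcium channel of the lysosome, read 9.36, 9.41 and 8.92 with siOct4, 9.29, 9.54 and 9.54 with siCcnf+siNipp1, 8.70, 8.88 and 8.59 with siRb1, against 9.12, 8.97 and 8.91 in control. It rose by 0.46 (SE 0.15, adjusted p = 0.0323) with siCcnf+siNipp1, a call lost in 6 of 21 alternatives, 4 of which left out replicate 2 or 3 of either group (0.0814 to 0.101).

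LAMP2 encodes another membrane glycoprotein, and alternative last exons give it different tails, of which LAMP2A serves chaperone-mediated autophagy. Of its 6 kept probes, the platform annotation pairs 2 with the LAMP2A transcript, 3 with LAMP2B and 1 with another cDNA. The leading probe, paired with LAMP2A, read 11.85, 12.25 and 12.36 with siOct4, 11.87, 12.23 and 12.15 with siCcnf+siNipp1, 11.55, 11.40 and 11.69 with siRb1, against 12.01, 11.79 and 11.88 in control, and was not called in any comparison with control. It stood at 0.26 (adjusted p = 0.225) with siOct4, 0.19 (adjusted p = 0.369) with siCcnf+siNipp1 and -0.35 (adjusted p = 0.269) with siRb1.

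A pair of LAMP2B probes gave other values. Probe ILMN_1752351 read 11.00, 11.15 and 11.13 with siOct4, 11.50, 11.56 and 11.78 with siCcnf+siNipp1, 10.72, 10.60 and 10.78 with siRb1, against 9.95, 9.56 and 9.62 in control. Probe ILMN_2279961 read 11.46, 11.77 and 11.61 with siOct4, 11.99, 12.35 and 12.38 with siCcnf+siNipp1, 11.23, 11.29 and 11.42 with siRb1, against 10.31, 10.45 and 10.21 in control. In both probes the groups ran in the order siCcnf+siNipp1, siOct4, siRb1 and control without overlap. ILMN_1752351 rose by 1.39 (SE 0.13, adjusted p = 3e-05) with siOct4, by 1.90 (SE 0.13, adjusted p = 5.34e-06) with siCcnf+siNipp1 and by 1.00 (SE 0.13, adjusted p = 0.00188) with siRb1. ILMN_2279961 rose by 1.30, 1.92 and 0.99 (adjusted p = 6.35e-05, 6.19e-06 and 0.00278). These 6 calls held in all 19 alternatives fitted on probes.

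The third probe paired with LAMP2B, ILMN_1659753, did not follow them. It read 10.64, 11.18 and 11.15 with siOct4, 10.76, 11.07 and 10.91 with siCcnf+siNipp1, 10.29, 10.12 and 10.40 with siRb1, against 10.84, 10.23 and 10.71 in control, and stood at 0.39 (adjusted p = 0.128), 0.32 (adjusted p = 0.203) and -0.32 (adjusted p = 0.399). The second LAMP2A probe, ILMN_2243687, stood at 0.34 (adjusted p = 0.2), 0.42 (adjusted p = 0.106) and -0.22 (adjusted p = 0.622). The cDNA probe, ILMN_1917290, fell by 1.12 on the log2 scale with siRb1 (adjusted p = 0.0255), a call lost in 6 of 19 alternatives. With siRb1, LAMP2 thus had 2 probes called higher and 1 called lower, and counting it by its leading probe leaves it among the genes not called. On the mean of its 6 probes LAMP2 was called higher with siOct4 (0.61, adjusted p = 0.0048) and with siCcnf+siNipp1 (0.77, 0.00106).

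**Figure D4:**
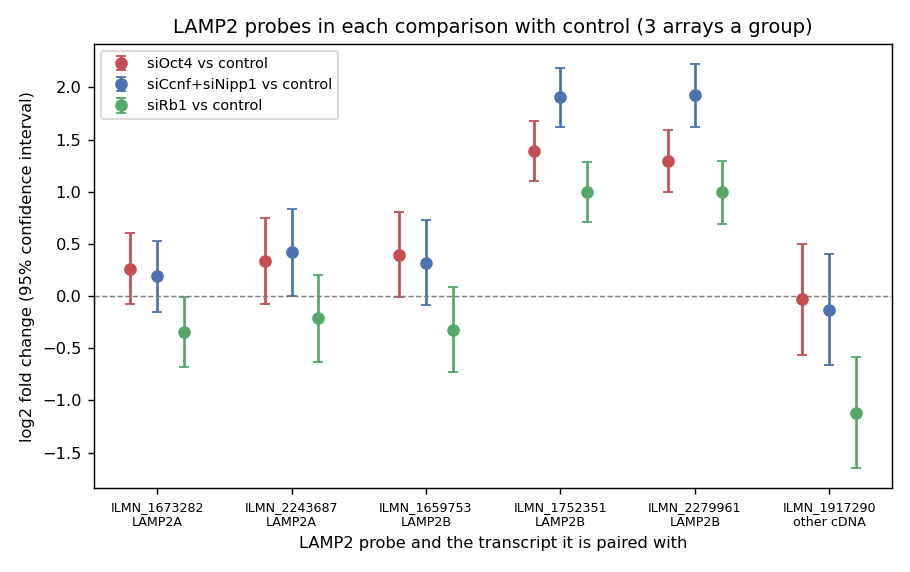
Log2 fold change against control with its 95% confidence interval for the 6 LAMP2 probes (3 arrays a group), each named with the transcript the platform annotation pairs it with. ILMN_1752351 and ILMN_2279961 stand between 0.99 and 1.92 in all 3 comparisons, while the third LAMP2B probe and the LAMP2A probes stand between -0.35 and 0.42.

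The proton pump that acidifies the lysosome was read by 2 genes. ATP6V1H, a subunit of its cytosolic part, read 10.16, 10.21 and 10.02 with siOct4, 11.09, 10.98 and 10.83 with siCcnf+siNipp1, 10.56, 10.64 and 10.32 with siRb1, against 11.15, 10.81 and 10.87 in control. All siOct4 arrays lay below the other 9. ATP6V1H fell by 0.82 on the log2 scale with siOct4 (SE 0.13, adjusted p = 0.000849), and its second probe stood at -0.74 (adjusted p = 0.135). With siCcnf+siNipp1 it stood at 0.02 (adjusted p = 0.925), and with siRb1 at -0.44 (adjusted p = 0.0977), and 0.0303 with the block. ATP6V0D1, a subunit of the membrane part, read 11.66, 11.58 and 11.55 with siOct4, 11.60, 11.69 and 11.50 with siCcnf+siNipp1, 11.52, 10.95 and 11.48 with siRb1, against 11.75, 11.13 and 11.48 in control, with overlapping groups, and was not called.

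TFEB and its relatives bind CACGTG, the core of the longer CLEAR element found upstream of many lysosomal genes. Promoter windows of 300 bases from RefSeq (GRCh38.p14), running from 250 before the start of a transcript to 50 after it, were found for 35 of the 41 genes. They covered 22 of 23 autophagosome genes but 12 of 17 lysosomal genes. The lysosomal genes ASAH1, ATP6V1H, CTSB, HEXA and LAMP2 had none, so the lysosomal share leaves them out. CACGTG reads the same on both strands. CACGTG stood in 7 of 13 lysosomal windows (53.8%) and in 1 of 28 autophagosome windows (3.57%), against 2548 of 35116 windows of all genes (7.26%) and 9.46% of those of genes with a kept probe. The longer palindrome, which contains it, stood in 2 lysosomal windows, those of GAA and MCOLN1, and in 124 of all windows (0.353%), or 0.699% of those of genes with a kept probe. The 4 windows printed here are those with CACGTG whose gene rose with siCcnf+siNipp1, with the motif in capitals, at chr13:113296989-113297288 (+ strand) for LAMP1, chr19:7522374-7522673 (+ strand) for MCOLN1, chr11:1763878-1764177 (- strand) for CTSD and chr20:45891085-45891384 (+ strand) for CTSA.
LAMP1: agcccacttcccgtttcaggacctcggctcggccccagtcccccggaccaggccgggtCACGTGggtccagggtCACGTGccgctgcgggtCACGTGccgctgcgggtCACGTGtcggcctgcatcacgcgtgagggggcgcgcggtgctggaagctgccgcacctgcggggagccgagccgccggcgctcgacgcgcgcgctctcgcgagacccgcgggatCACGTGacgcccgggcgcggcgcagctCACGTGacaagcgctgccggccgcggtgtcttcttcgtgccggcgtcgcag
MCOLN1: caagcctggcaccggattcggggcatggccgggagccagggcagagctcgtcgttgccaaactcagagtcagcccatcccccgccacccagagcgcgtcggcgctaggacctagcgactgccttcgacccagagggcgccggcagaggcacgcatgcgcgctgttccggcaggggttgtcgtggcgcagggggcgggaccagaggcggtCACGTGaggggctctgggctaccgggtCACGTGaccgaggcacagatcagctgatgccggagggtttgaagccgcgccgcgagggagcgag
CTSD: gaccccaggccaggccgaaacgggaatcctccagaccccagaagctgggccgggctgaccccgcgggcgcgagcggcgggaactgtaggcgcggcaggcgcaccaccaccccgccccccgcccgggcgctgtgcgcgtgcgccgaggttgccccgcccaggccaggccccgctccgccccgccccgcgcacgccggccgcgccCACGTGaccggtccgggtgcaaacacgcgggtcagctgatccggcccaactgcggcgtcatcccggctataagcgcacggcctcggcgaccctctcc
CTSA: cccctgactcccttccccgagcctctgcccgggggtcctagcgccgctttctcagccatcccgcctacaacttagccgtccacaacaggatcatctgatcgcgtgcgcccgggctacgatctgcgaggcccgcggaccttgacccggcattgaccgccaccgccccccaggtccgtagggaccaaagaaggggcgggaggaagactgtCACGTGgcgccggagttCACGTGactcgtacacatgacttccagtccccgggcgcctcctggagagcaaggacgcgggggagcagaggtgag
LAMP1 has 6 copies of CACGTG, MCOLN1 and CTSA 2 each and CTSD 1. The motif stood in 4 of 22 windows of genes that rose with siCcnf+siNipp1 (18.2%) and in 4 of 18 windows of genes tested and not higher (22.2%); the genes of those 4 are GAA, NEU1, ATP6V0D1 and ATG3. A match describes letters in the window and says nothing of binding.

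Set directly against each other, siOct4 and siCcnf+siNipp1 differed for 16 of the 39 genes, 5 higher and 11 lower with siOct4, where 17.5% of all genes were higher and 16.7% lower. Among autophagosome genes 4 were higher and 5 lower, and among lysosomal genes 1 was higher and 6 lower. Higher with siOct4 were OPTN, TPP1 and WIPI2, described above, ATG4B by 0.64 (SE 0.18, adjusted p = 0.0158) and ATG3 by 0.33 (SE 0.11, adjusted p = 0.0411). Lower with siOct4 were GABARAPL1, MAP1LC3B by -0.65 (SE 0.16, adjusted p = 0.00935), ULK1, ATG12 by -0.51 (adjusted p = 0.0302) and ATG16L1 by -0.32 (0.0315). Of the lysosomal genes, HEXA was at least 2.04-fold lower, and ATP6V1H (-0.84), NEU1 (-0.62), LAMP1 (-0.55), CTSA (-0.51) and CTSD (-0.37) were lower at adjusted p of 0.000649 to 0.0366. With only these 2 groups in the fit, 9 genes were called in place of 16, and 25.9% of all kept probes in place of 33.2%. With the replicate number as a block 21 genes were called, beside 42.9% of all kept probes. The block added ASAH1, GABARAPL2, GLA, NPC2 and WIPI1, all lower with siOct4.

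**Figure D5:**
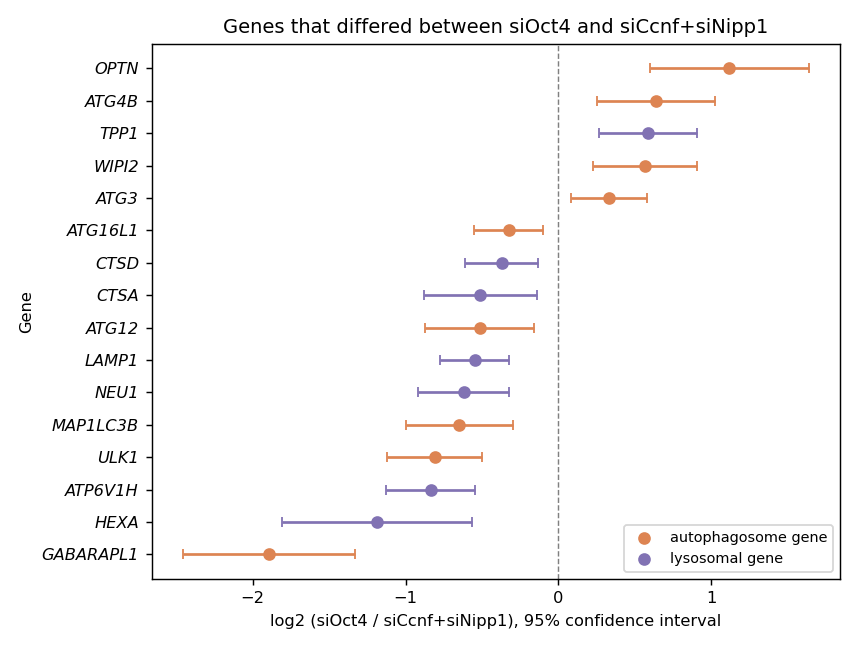
Log2 ratio of siOct4 to siCcnf+siNipp1 with its 95% confidence interval for the 16 genes called different between them (3 arrays a group). The interval of GABARAPL1 runs from -2.46 to -1.33 and that of OPTN from 0.60 to 1.64, and 11 of the 16 genes lie left of 0.

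Against siRb1, siCcnf+siNipp1 had 24 genes higher and 1 lower, ATG4B, beside 17.1% higher and 17.9% lower among all genes. Of these, 12 of 22 autophagosome and 12 of 17 lysosomal genes were higher. The block added CTSB, while 42.9% of all kept probes were called with it in place of 33.9%. Against siRb1, siOct4 had 14 higher and 1 lower, ATP6V1H, beside 16.1% and 16.3%. The second ATP6V1H probe stood at 0.19 in that comparison and was not called. With the block CTSA, GABARAPL2 and PIK3C3 were called higher and ATG5 lower as well. The count without the block was 8 without siOct4 replicate 2 and 9 without siRb1 replicate 3, when 23.9% and 23.8% of all kept probes were called. In siRb1 against control, leaving out replicate 2 or 3 of either group left 0 calls and leaving out siRb1 replicate 1 left 1. In those fits 1.27% to 2.58% of all kept probes were called, in place of 3.99%. Median scaling in place of quantile normalisation set the median of all probes at -0.11 in that comparison, and 40% of the called probes were then higher, in place of 61.6%. For siOct4 against siRb1 that share was 60.9% in place of 49.0%.

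Further genes of the pathway, 107 measured of 129 listed, were read in the same fit by their leading probes, and their values are log2 fold changes unless marked as folds. With siCcnf+siNipp1 40 rose and 10 fell, with siOct4 25 rose and 7 fell, and with siRb1 3 rose and 0 fell. These are 37.4% and 9.35%, 23.4% and 6.54%, and 2.80% and 0% of the 107, beside 18.4% and 18.7%, 16.9% and 16.1%, and 2.67% and 1.51% of all genes, so the siRb1 share of higher genes is near that of all genes. Among other lysosomal enzymes 14 of 27 rose (51.9%) and 1 fell with siCcnf+siNipp1. Highest among those detected in both groups were the lysosomal nuclease DNASE2 (1.25), the heparan sulfate glycosidase NAGLU (1.11) and the sulfatase ARSA (1.07), and the 1 that fell was the protease LGMN (-1.05). With siOct4 9 of these 27 rose (33.3%) and 1 fell: highest among those detected in both groups were the mannosidase MAN2B1 (1.32), the lipase LIPA (1.23) and ARSA (1.06), and the 1 lower was the cathepsin CTSV (-0.82). The cathepsin CTSO was undetected in control, and its probe passed the filter through the knockdown arrays: it was at least 1.23-fold higher with siOct4 and at least 1.63-fold higher with siCcnf+siNipp1, bounds that give it no rank. LGMN rose by 0.43 with siOct4, opposite to its change with siCcnf+siNipp1. With siRb1 GUSB, beta-glucuronidase, rose by 0.59.

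Other autophagy genes rose in 9 of 29 cases (31.0%) and fell in 3 (10.3%) with siCcnf+siNipp1. Highest were FYCO1 (1.83), which links autophagosomes to kinesin, the mitophagy receptor BNIP3L (1.15) and the ULK1 partner RB1CC1 (1.07), and lowest ATG16L2 (-0.89), ATG4D (-0.76) and BNIP3 (-0.48). With siOct4 7 rose (24.1%) and 2 fell (6.90%), led by FYCO1 (1.79), the receptor CALCOCO2 (0.87) and the fusion protein VAMP8 (0.83), and lowest were TAX1BP1 (-0.48) and PIK3R4 (-0.45). FYCO1 also rose by 0.61 with siRb1, and was called in all 3 comparisons with control.

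Of the 16 other proton pump genes 6 rose (37.5%) and 2 fell (12.5%) with siCcnf+siNipp1, led by ATP6AP1 (0.88), ATP6V0E1 (0.69) and ATP6V1E1 (0.46), with ATP6V0E2 (-0.86) and ATP6V1D (-0.57) lower. With siOct4 2 rose and 2 fell (12.5% each, below the 16.9% and 16.1% of all genes): ATP6V0E1 (0.49) and ATP6V1G2 (at least 1.31-fold) were higher and ATP6V1D (-1.19) and ATP6V1C1 (-0.52) lower. ATP6V1G2 was undetected in control and its probe passed the filter through the knockdown arrays, so its difference is in part given by that choice. Of 13 other genes of the lysosomal membrane and of sorting, 3 rose with each of these knockdowns (23.1%), and 2 fell with siCcnf+siNipp1 (15.4%) and 1 with siOct4 (7.69%). With siCcnf+siNipp1 the mannose 6-phosphate receptors IGF2R (0.89) and M6PR (0.59) and the cystine transporter CTNS (0.56) rose, while GNPTG (-0.63) and GNPTAB (-0.60), subunits of the enzyme that starts the mannose 6-phosphate tag, fell. With siOct4 the lysosomal glycoprotein CD68 (1.13), LAPTM4A (0.62) and M6PR (0.44) rose and MFSD8 (-0.70) fell.

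Of 22 genes of nutrient sensing and of the TFE factors, 8 rose (36.4%) and 2 fell (9.09%) with siCcnf+siNipp1, beside 18.4% and 18.7% of all genes. Highest were the mTORC1 inhibitor DDIT4 (0.89), the Rag GTPase RRAGD (0.86) and FNIP1 (0.65), and lower were TSC2 (-0.50) and MLST8 (-0.38). TFE3, a relative of TFEB named here after its value was seen, rose by 0.46. With siOct4 4 rose (18.2%, near the 16.9% of all genes) and 1 fell (4.55%): DDIT4 (1.51), RRAGB (1.36), TSC2 (0.91) and RRAGA (0.68) were higher and MTOR (-0.57) lower. With siRb1 RRAGA rose by 0.47.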

How the data were processed

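Per the file headers, the authors deposited linear signal intensity values with a detection p-value beside each, for 47322 probes on 12 arrays. They also deposited normalized intensity values for 47303 probes, with a median of 196 on every array. GenomeStudio is named in the submitters' processing notes with no version. The platform annotation pairs 30102 probes with 1 gene, 8 with several and 17212 with none. Signals were corrected and normalized with neqc (limma 3.58.1, R 4.3.3; offset 16), which estimates background through those p-values, equalizes the quantiles and returns log2 values. Probes with 1 gene and a detection p under 0.01 on at least 3 arrays entered 1 limma fit of 12 arrays with a mean per group (8 residual and 3.89 prior degrees of freedom). All 6 contrasts were two-sided. The kept probe with the highest mean stood for a gene. A change is given as "at least N-fold" where the lower group had no detected array. The same holds where that group was detected on fewer than 3 arrays and the log2 change was at least 1. Such a change is set against the lowest signal detected on each array or the probe's own signal, whichever was larger. Figures were drawn in Python 3.11.15. The fit was tested on simulated data.

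The members and the lists of related genes were chosen with earlier results of these data known. Array values are given for called genes whose arrays do not overlap, for the 5 largest changes of each class and for some probes that disagree, of GABARAPL2 and LAMP2. GAA, among those 5 with siRb1, is given by log2 fold change only. So are ATG12, ATG4A and the second probes of ATG9A and ATP6V1H. Of the related genes the 3 highest and 3 lowest called per list are named, with CTSO, which has only a bound, named beside them. ATP6V1G2 also has only a bound with siOct4. Whether the biological replicates were separate cultures is not in the labels, so p-values may measure a technical spread. Deviations from the group means correlated between arrays of the same replicate number in 18 of 18 pairs (0.102 to 0.426). On these values the numbers were taken to pair the samples, on the data and not on a label. Between other arrays (36 pairs) the correlations were -0.28 to 0.0438. Deviations cancel within each group, so these lower values follow in part from the first and are no separate support. The main fit ignores the pairing, and the replicate number enters only as a block among the alternatives. Array number limits the precision. Alternatives changed the background correction, scaling, input table, filter, probe rule, arrays in the fit and block, and left out each array.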

Additional observations from a re-analysis of the deposited data

How the results depend on the processing

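No value of the 39 genes changed direction while called. With the replicate number as a block the count of genes called against control was 15 with siOct4 (12 without it), 26 with siCcnf+siNipp1 (22) and 4 with siRb1 (2). The share of all kept probes called also rose with the block, to 41.6% (32.1% without it), 45.6% (36.0%) and 9.11% (3.99%). In these and the other comparisons the block changed no call other than those given above, and removed none. For siRb1 against control the count was 1 under median scaling and 1 with only the 2 groups in the fit, and 0 to 2 when 1 array was left out. For siOct4 against siCcnf+siNipp1 (16) it was 9 with only these 2 groups in the fit, and for siOct4 against siRb1 (15) it was 8 to 16 when 1 array was left out. Other counts stayed within 1.5 times: 8 to 15 for siOct4 against control, 16 to 26 for siCcnf+siNipp1 against control. The median log2 change with siCcnf+siNipp1 ranged from 0.33 to 0.50 for autophagosome and from 0.41 to 0.61 for lysosomal genes. Of the calls against control, 7 of 12 with siOct4, 14 of 22 with siCcnf+siNipp1 and 0 of 2 with siRb1 held under every alternative that could be run. The causes were not tested. With a probe required on all 12 arrays WIPI1, HEXA, NBR1 and ATG13 have no value, and slide as a block was not run because the files name no slides. Dim probes such as those of WIPI1 and HEXA give fold changes that depend on the background correction.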
